A study of Homo sapiens with 4 samples.

Results

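The nuclear genes for subunits of the oxidative phosphorylation complexes were followed on 4 arrays of LNCaP-derived cells. Members were all genes whose symbol begins with NDUFA, NDUFB, NDUFC, NDUFS, NDUFV, UQCR, COX4, COX5, COX6, COX7, COX8 or ATP5, or is SDHA, SDHB, SDHC or SDHD, with the assembly factors (NDUFAF) left out. Of 19483 genes paired with a probe, 88 symbols matched, and 85 of them were protein-coding. These 85 members were 37 subunit genes of complex I, 4 of complex II, 8 of complex III, 17 of complex IV and 19 of complex V. They were measured by 105 probes, and where a gene had more than 1 probe the brightest stood for it. The other 3 symbols were the pseudogene UQCRBP1 and the non-coding RNAs NDUFA6-DT and NDUFB2-AS1, which are given apart. RefSeq now lists NDUFA4 and NDUFA4L2 as COXFA4 and COXFA4L2 and gives cytochrome c1 as CYC1, so these subunits fell outside the rule and are described beside the members.

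LNCaP is an androgen-responsive human prostate cancer cell line. TR9_MeTA14 and TR15_MeTA5 were derived from it by stable transfection of the Tet repressor (the parental TR9 and TR15 cells) and then of a tetracycline-inducible fusion, NFκB (AD)-MBD, which couples a transcriptional activation domain to a domain that binds methylated CpG. The method is called methyl-CpG targeted transcriptional activation (MeTA). Each line was measured without tetracycline (-Tet) and after 4 days with it (+Tet), with 1 array for each of the 4 conditions. All 4 groups carried both constructs, and both lines were maintained in blasticidin and zeocin. No array of cells treated with tetracycline but lacking the fusion was analysed here, so the drug and the fusion cannot be told apart.

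Oxidative phosphorylation takes place in the inner mitochondrial membrane. Complexes I and II pass electrons from NADH and succinate to ubiquinone, complex III passes them to cytochrome c, and complex IV passes them to oxygen. Complexes I, III and IV pump protons, and complex V (ATP synthase) uses the gradient to make ATP. Most subunits are encoded in the nucleus, and a small set is encoded in mitochondrial DNA and made on mitochondrial ribosomes, the compartment in which tetracycline antibiotics can also act. Several complex IV subunits exist in a common form and in forms typical of muscle, lung or testis.

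The signals were Cy3 intensities that Agilent Feature Extraction had corrected for background. In each array the 75th percentile over probes was set to a common value, and the result is called the scaled signal. A probe was well above background where Feature Extraction's own flag said so, and the lowest scaled signals with that flag lay between 9.96 and 23.4 on the 4 arrays. Where a probe was not well above background on the dimmer array, the fold change is a bound, taken against the higher of its own signal and that lowest signal. Probes with several spots gave an SD of 0.087 for a log2 ratio between 2 arrays, which covers the spots of an array and not the spread between cultures. No condition had a replicate, and no p-value is given within a line. Levels of different probes cannot be compared, since brightness also depends on the probe. All 8 luminal LNCaP markers, with KLK3 (prostate-specific antigen) among them, were well above background on the 4 arrays, and the basal markers KRT5, KRT14 and TP63 were well above background on none. A lower scaled signal can come from less RNA per cell or from fewer cells that express the gene, and these cannot be told apart.

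The subunit genes were a bright set. Of the 85 members, 82 were well above background on all 4 arrays, 79 had a scaled signal of at least 1000 on each, and 73 lay in the brightest 10% of genes. The 6 members below 1000 on some array were NDUFA9, a complex I accessory subunit, and 5 complex IV genes, COX4I2, COX6A2, COX7A1, COX7B2 and COX8C. The 5 members with the brightest probes were UQCRQ, ATP5F1E, COX8A, COX6A1 and ATP5MG. All these counts describe probes on this array.

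With tetracycline, most subunit genes lay slightly lower on the scale used. In TR9_MeTA14 the median log2 change of the 85 members was -0.37, with 65 members below 0. The 15079 genes compared in that line had a median of -0.06 and 52.9% of them lay below 0. In TR15_MeTA5 the median of the 84 members compared was -0.28, with 78 below 0, beside a median of -0.16 and 64.1% of 14343 genes. The brightest 10% of genes, which held 73 of the 85 members, had medians of -0.21 in TR9_MeTA14 and -0.26 in TR15_MeTA5.

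The members stayed closer together than genes in general. The range between the lower and upper quartile of log2 changes was 0.52 over the members in TR9_MeTA14, 1.21 over all genes and 1.10 over the brightest 10%. In TR15_MeTA5 it was 0.14 over the members, 0.60 over all genes and 0.39 over the brightest 10%. A narrow range was not particular to the members. Assembly factors had 0.52 in TR9_MeTA14 and 0.29 in TR15_MeTA5, and mitochondrial ribosomal protein genes 0.45 and 0.21. Citrate cycle enzymes, regulators of mitochondrial biogenesis and electron carriers and donors were wider in TR9_MeTA14, with 1.05, 1.22 and 0.95. In TR9_MeTA14, 63 members (74.1%) lay within 1.5-fold, as did 48.3% of all genes. In TR15_MeTA5, 77 members (91.7%) and 73.9% of all genes did. These shares are descriptions of 2 arrays each and were not tested.

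**Figure D1:**
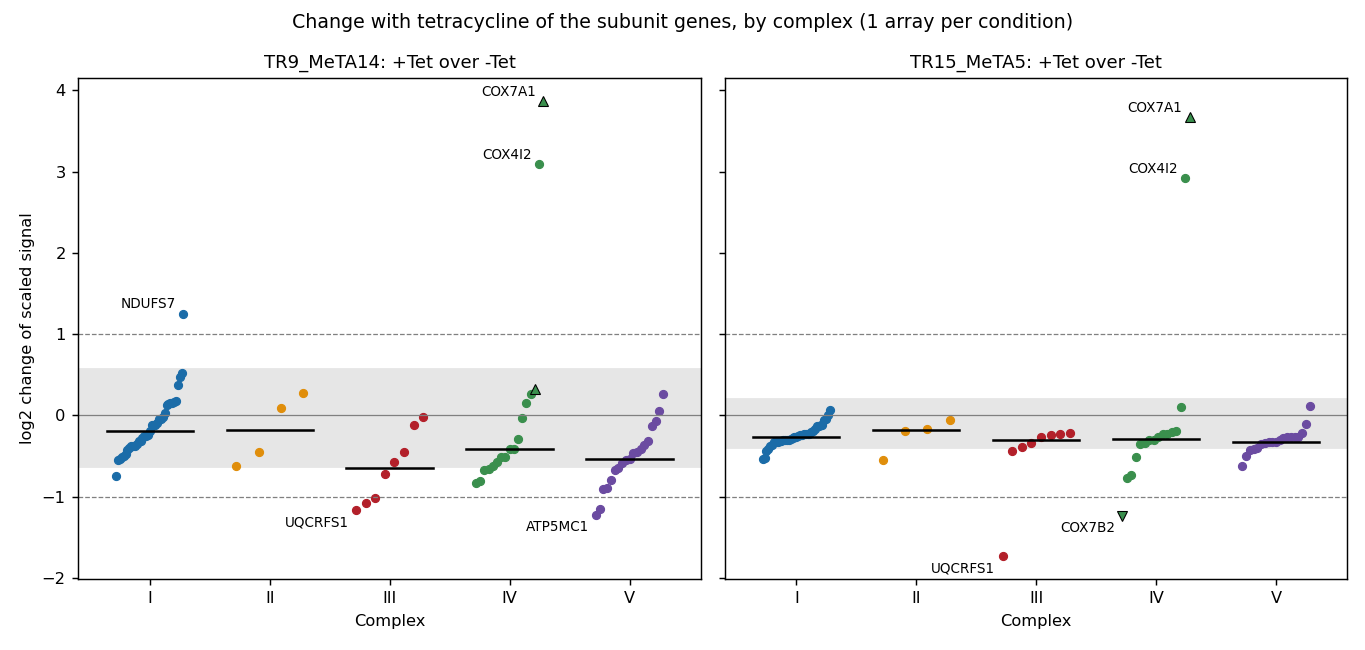
Each point is a subunit gene, placed by its log2 change of scaled signal (+Tet over -Tet) in TR9_MeTA14 on the left and TR15_MeTA5 on the right, with genes sorted by value within complexes I to V. Triangles are bounds, black lines are the medians of a complex, the grey band spans the quartiles of all genes, and dashed lines mark 2-fold. COX7A1 and COX4I2 stand far above the others in both panels, and UQCRFS1 lies under the lower dashed line in both.

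Few members passed the study's cut-off of 2-fold. In TR9_MeTA14, 3 of 85 members (3.53%) were at least 2-fold higher with tetracycline, against 16.8% of all genes compared, and 5 (5.88%) were at least 2-fold lower, against 15.1%. In TR15_MeTA5, 2 of 84 members (2.38%) were at least 2-fold higher, against 9.8% of genes, and 2 (2.38%) were lower, against 2.22%. In both lines together, 2 of 84 members were higher, against 8.21% of genes, and 1 (1.19%) was lower, against 0.837%. The share of members lower in TR15_MeTA5 and in both lines was thus near that of all genes, and the other shares were below it. Of the brightest 10% of genes, 12.1% were higher and 18.0% lower in TR9_MeTA14, and 3.13% and 0.92% in TR15_MeTA5. The 79 members with a scaled signal of at least 1000 on all 4 arrays are the ones to set beside that group. In TR9_MeTA14, 1.27% of them were higher and 6.33% lower, both smaller shares. In TR15_MeTA5 none of these 79 was higher, and 1 (1.27%) was lower, which is near the share of that group.

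The effect of tetracycline over both lines was also fitted with limma across 22819 probes, with cell line as a block and the lines standing in for replicates, which left 1 residual degree of freedom. At a Benjamini-Hochberg adjusted p under 0.05, 2 of the 84 members tested (2.38%), COX4I2 and COX7A1, passed as higher, and 2.52% of all probes did. COX7A1 entered the fit only through the +Tet arrays, where it was high, so that its call supports nothing. With the fit limited to probes well above background on all 4 arrays, COX4I2 was the only one of 82 members to pass. No member passed as lower, and 0.00876% of probes did. At an unadjusted p under 0.05 in limma, 2 of 84 members (2.38%), ATP5MC1 and UQCRFS1, were lower. Of all 22819 probes, 1787 (7.83%) were, so the share of members was below that of all probes.

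The shift common to the members depended on how the arrays were scaled. Quantile normalization moved the median of the members to -0.16 in TR9_MeTA14 and -0.056 in TR15_MeTA5. Scaling on the spike-in controls gave -0.25 and 0.033, so that the direction turned in TR15_MeTA5. The median of all genes under spike-in scaling was 0.06 in TR9_MeTA14 and 0.15 in TR15_MeTA5. The members lay 0.31 and 0.12 below it. Spike-in scaling takes a constant off each array, so it could not change this distance from that on the scale used. Quantile normalization can change it. There the members lay 0.02 below all genes in TR9_MeTA14 and 0.09 above them in TR15_MeTA5. All other values are given on the 75th percentile scale, and the direction of a small change depends on it.

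**Figure D2:**
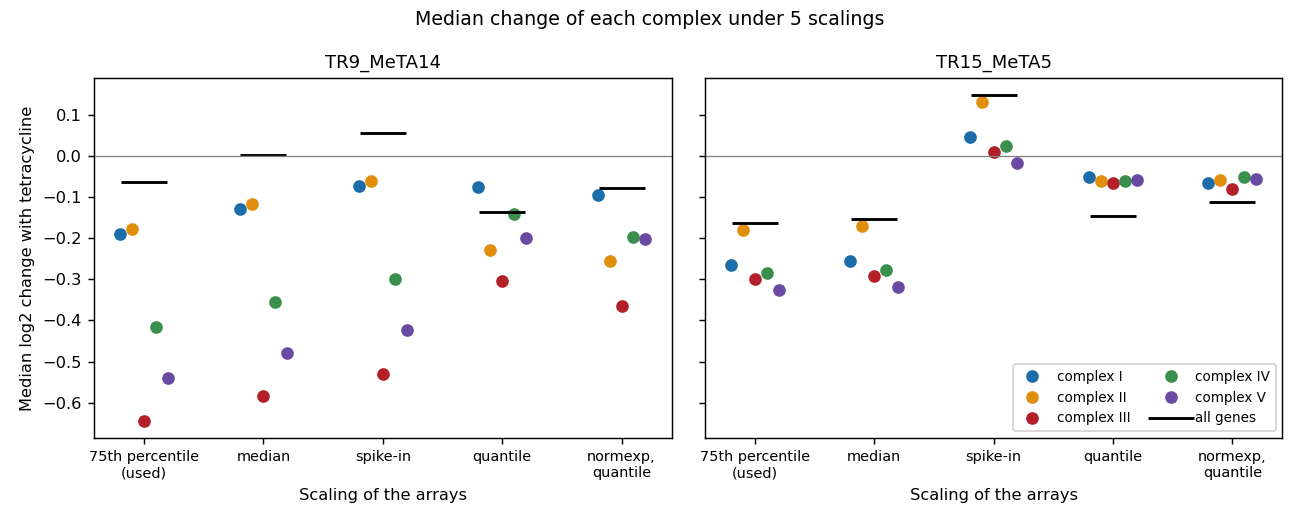
Points are the median log2 changes (+Tet over -Tet) of the members of each complex in TR9_MeTA14 (left) and TR15_MeTA5 (right), under the scaling used and 4 alternatives, and black lines are the medians of all genes. Complex III had the lowest median of the complexes in TR9_MeTA14 under each scaling drawn (-0.65 under the scaling used), while in TR15_MeTA5 under quantile normalization the 5 complexes lay between -0.07 and -0.05. Median and spike-in scaling take a constant off each array and so keep the order of the complexes.

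Since the fusion binds methylated CpG, the CpG content of the upstream windows of the members was read from RefSeq (GRCh38.p14). The window was the 250 bases before the gene start, and it could be read for 70 of the 85 members. The gene start is the annotated one, and the start used in these cells was not measured, so a window need not be the active promoter. The median was 18.5 CpG per window over these members and 11 over the 27303 genes with a window. Those genes were not limited to protein-coding genes, to genes on the array or to bright ones, so they are not a matched set. Fewer than 10 CpG were found in 9 members (12.9%) and in 48.1% of all genes. The windows printed here belong to members that were at least 2-fold apart with tetracycline or between the lines, to forms of complex IV subunits that were dim on the arrays, and to COXFA4L2. No methylation was measured on these arrays. They are written 5′ to 3′ along the strand of the gene, with each CG in capitals.
UQCRFS1: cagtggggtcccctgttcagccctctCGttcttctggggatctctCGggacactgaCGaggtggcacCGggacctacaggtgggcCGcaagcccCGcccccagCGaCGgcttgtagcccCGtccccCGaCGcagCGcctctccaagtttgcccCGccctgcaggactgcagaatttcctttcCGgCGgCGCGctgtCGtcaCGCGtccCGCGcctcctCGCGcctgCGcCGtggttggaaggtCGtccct
NDUFS7: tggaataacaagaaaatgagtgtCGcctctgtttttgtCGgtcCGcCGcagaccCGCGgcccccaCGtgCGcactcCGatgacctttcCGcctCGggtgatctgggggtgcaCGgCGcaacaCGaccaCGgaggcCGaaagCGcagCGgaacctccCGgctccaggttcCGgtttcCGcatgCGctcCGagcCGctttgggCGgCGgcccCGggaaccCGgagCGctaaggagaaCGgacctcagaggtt
COX6B2: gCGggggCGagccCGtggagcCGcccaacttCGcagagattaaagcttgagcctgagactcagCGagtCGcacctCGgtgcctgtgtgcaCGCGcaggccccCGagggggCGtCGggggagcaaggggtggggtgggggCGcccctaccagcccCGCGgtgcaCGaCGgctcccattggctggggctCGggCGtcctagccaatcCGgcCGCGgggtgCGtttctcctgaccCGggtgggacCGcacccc
COX7B2: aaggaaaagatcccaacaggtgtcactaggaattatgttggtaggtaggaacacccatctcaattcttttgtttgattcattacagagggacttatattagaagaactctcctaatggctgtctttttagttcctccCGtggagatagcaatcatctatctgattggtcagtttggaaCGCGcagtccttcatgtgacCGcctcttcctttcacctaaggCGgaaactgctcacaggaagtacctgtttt
COX8C: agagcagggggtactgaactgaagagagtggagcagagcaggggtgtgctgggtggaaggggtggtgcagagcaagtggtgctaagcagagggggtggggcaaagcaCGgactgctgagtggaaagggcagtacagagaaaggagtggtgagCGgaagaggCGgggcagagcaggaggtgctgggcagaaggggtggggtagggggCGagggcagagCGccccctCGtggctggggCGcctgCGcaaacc
COX6A2: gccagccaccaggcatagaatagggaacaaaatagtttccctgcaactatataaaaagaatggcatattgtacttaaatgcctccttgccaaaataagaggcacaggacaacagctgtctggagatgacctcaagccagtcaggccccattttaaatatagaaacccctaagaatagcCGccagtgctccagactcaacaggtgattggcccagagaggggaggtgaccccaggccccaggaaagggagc
COXFA4L2: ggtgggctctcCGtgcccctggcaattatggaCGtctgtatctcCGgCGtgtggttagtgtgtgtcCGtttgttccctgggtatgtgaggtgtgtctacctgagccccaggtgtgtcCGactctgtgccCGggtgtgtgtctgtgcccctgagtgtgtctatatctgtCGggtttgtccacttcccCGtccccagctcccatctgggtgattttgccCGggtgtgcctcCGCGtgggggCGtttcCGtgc

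The window of UQCRFS1 is chr19:29213152-29213401 on the minus strand with 27 CpG, and that of NDUFS7 is chr19:1383657-1383906 on the plus strand with 30 CpG. As few or fewer CpG were found in 84.5% and 89.4% of the genes with a window, so both are CpG-rich beside that set. The window of COX6B2, a testis form, is chr19:55354720-55354969 on the minus strand with 26 CpG. Its brighter probe had scaled signals of 4885 or more and its other probe of 68.6 or less, so no level can be given for this gene. Few CpG in the annotated window did not go with dim signals alone. Of the 9 members with fewer than 10 CpG, 6 had a scaled signal of at least 1000 on all 4 arrays. COX7A2, with 0 CpG, was among these 6. The other 3 were dim. The window of COX7B2 is chr4:46909246-46909495 on the minus strand with 5 CpG, that of COX8C is chr14:93346932-93347181 on the plus strand with 8 CpG and that of COX6A2 is chr16:31428361-31428610 on the minus strand with 1 CpG. The window of COXFA4L2 is chr12:57240763-57241012 on the minus strand with 14 CpG, a number that 57.3% of genes do not exceed. Among other members at least 2-fold apart with tetracycline, ATP5MC1 and ATP5PO had 18 CpG each and UQCRH had 10, and their windows are not printed. COX4I2, COX7A1 and UQCRB were not read.

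Motifs of factors known to act on respiratory chain genes were searched on both strands of the same windows, and none of the 3 motifs contains another. GCATGC, the core of the site of nuclear respiratory factor NRF1, was found in 14 of 70 members (20%) and in 6.44% of all genes, with NDUFS7 among the 14. CCGGAAG, an ETS site as bound by GABP, was found in 17 members (24.3%) and in 8.82% of genes, with COX8A, COX6B1, UQCRH and SDHB among the 17. AAGATGG, part of the site of YY1, was found in 4 members (5.71%) and in 3.77% of genes. These shares of genes are over all genes with a window, which were not matched to the members in CpG content or signal. None of the printed windows except that of NDUFS7 held any of the 3. A match only says that the letters are present. Bases after the gene start were not searched, so a window without a match does not say that the gene lacks the site.

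Complex IV held the members that were far higher with tetracycline in both lines. It passes electrons from cytochrome c to oxygen, and several of its nuclear subunits modulate that reaction. COX7A1, the heart and skeletal muscle form of subunit 7A, had scaled signals of 2.94 (-Tet) and 203 (+Tet) in TR9_MeTA14 and of 9.97 (-Tet) and 297 (+Tet) in TR15_MeTA5. It was not well above background on either -Tet array and was well above it on both +Tet arrays. On the scale used it was thus at least 14.6-fold higher with tetracycline in TR9_MeTA14 and at least 12.7-fold higher in TR15_MeTA5. Over the alternatives run its log2 change lay between 1.88 and 6.11 in TR9_MeTA14 and between 2.37 and 4.90 in TR15_MeTA5. No estimate over both lines is given for it, since its -Tet signals are below background. COX4I2, the form of subunit 4 typical of lung, had 17.7 and 151 in TR9_MeTA14 and 32.4 and 245 in TR15_MeTA5, -Tet before +Tet. Both -Tet signals were well above background but close to its lowest level, and both +Tet signals lay above both -Tet signals. COX4I2 was 8.53-fold higher with tetracycline in TR9_MeTA14 and 7.57-fold higher in TR15_MeTA5, and its log2 change in limma was 3.01 ± 0.30 (SE) with an adjusted p of 0.0303. COX4I2 did not pass in limma without the cell line as a block. Its log2 change lay between 1.32 and 3.21 in TR9_MeTA14 and between 1.735 and 3.23 in TR15_MeTA5 over the alternatives run.

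The other restricted forms did not follow the same pattern. COX6A2, the heart and muscle form of subunit 6A, had scaled signals of 68.6 and 55.9 in TR9_MeTA14 and 52.0 and 55.9 in TR15_MeTA5, a log2 change of -0.30 and 0.10. COX8C, the testis form of subunit 8, had 3.20 and 17.5 in TR9_MeTA14 and 5.03 and 17.7 in TR15_MeTA5. Of these only the signal of TR9_MeTA14 +Tet was well above background, which made COX8C at least 1.25-fold higher there and gave no fold in TR15_MeTA5. COX7B2, a paralogue of subunit 7B known from testis, had 186 and 207 in TR9_MeTA14 and 46.6 and 17.9 in TR15_MeTA5. In TR15_MeTA5 its +Tet signal was not well above background, so it was at least 2.36-fold lower there, and its log2 change in TR9_MeTA14 was 0.15.

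COX6B2, the testis form of subunit 6B, was measured by a pair of probes that disagreed. The brighter had 6966 and 4885 in TR9_MeTA14 and 16560 and 9674 in TR15_MeTA5, with log2 changes of -0.51 and -0.78, the latter the lowest in complex IV among members well above background on all 4 arrays of that line. The dimmer had 43.6 and 63.5 in TR9_MeTA14 and 65.7 and 68.6 in TR15_MeTA5, with log2 changes of 0.54 and 0.06. No direction can be given for this gene. COXFA4L2, a paralogue of NDUFA4 known as a hypoxia-induced gene, had 13.4 and 196 in TR9_MeTA14 and 15.1 and 98.0 in TR15_MeTA5. It was not well above background on either -Tet array, so it was at least 14.1-fold higher with tetracycline in TR9_MeTA14 and at least 4.19-fold higher in TR15_MeTA5.

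The common forms of the same subunits lay at or slightly below their -Tet signals in most cases. COX4I1 had 13250 and 9946 in TR9_MeTA14 and 21237 and 16568 in TR15_MeTA5, log2 changes of -0.41 and -0.36. COX7A2 had 49685 and 34892 in TR9_MeTA14 and 58336 and 50857 in TR15_MeTA5, changes of -0.51 and -0.20. Neither gene moved by 1.5-fold, while the restricted form of each was the one far higher with tetracycline. COX6A1 had 86505 and 64835 in TR9_MeTA14 and 118589 and 71153 in TR15_MeTA5, changes of -0.42 and -0.74. COX6B1 had log2 changes of -0.03 and -0.30, COX8A of 0.26 and -0.22, and COXFA4 of -0.50 and -0.24. Under quantile normalization COX8A was at least 2-fold higher in TR9_MeTA14. COX7A2L, a relative of subunit 7A that takes part in assembling complexes III and IV into supercomplexes, had changes of -0.81 and -0.21. COX7C, a small structural subunit, had the lowest change of complex IV in TR9_MeTA14 (79330 and 44717, -0.83) and -0.30 in TR15_MeTA5. Over the 17 complex IV genes the median was -0.42 in TR9_MeTA14 and -0.29 in TR15_MeTA5 (16 compared).

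**Figure D3:**
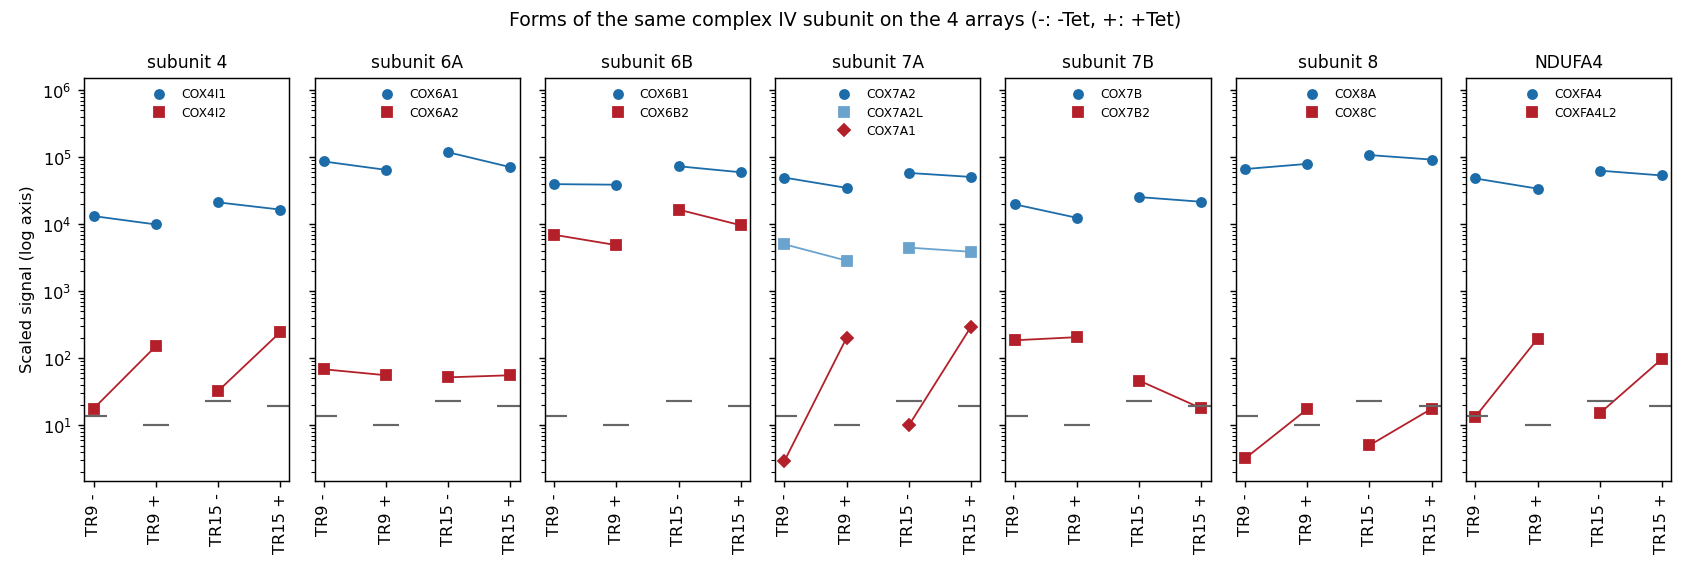
Scaled signals (log axis) of the forms of complex IV subunits on the 4 arrays, with common forms in blue, restricted or paralogous forms in red, and grey dashes at the lowest signal well above background on each array. Lines join -Tet and +Tet of a line, and levels of different probes are not comparable. COX7A1 and COXFA4L2 start below the grey dashes and COX4I2 just above them, and with tetracycline all 3 reach between 98.0 and 297, while the common forms stay nearly level.

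Complex III, which passes electrons from ubiquinol to cytochrome c, had a median of -0.65 in TR9_MeTA14, the lowest of the complexes, and of -0.30 in TR15_MeTA5, where complex V was lower. All 8 of its genes lay below 0 in both lines. UQCRFS1, the Rieske iron-sulfur protein that takes the first electron from ubiquinol, had scaled signals of 36215 and 16153 in TR9_MeTA14 and 46184 and 13913 in TR15_MeTA5. Both +Tet signals lay below both -Tet signals. It was 2.24-fold lower with tetracycline in TR9_MeTA14 and 3.32-fold lower in TR15_MeTA5, and was the only member at least 2-fold lower in both lines. Its log2 change over both lines in limma was -1.45 ± 0.30 (SE) with an adjusted p of 0.126, so it did not pass. Its log2 change lay between -1.17 and -0.97 in TR9_MeTA14 and between -1.73 and -1.37 in TR15_MeTA5 over all alternatives run, with quantile normalization taking it just inside 2-fold in TR9_MeTA14.

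Another pair of complex III genes passed 2-fold in TR9_MeTA14 only. UQCRB, which lies near the ubiquinone-binding site, had 21774 and 10291 in TR9_MeTA14 and 17246 and 14539 in TR15_MeTA5, and was 2.12-fold lower in the former with a log2 change of -0.25 in the latter. UQCRH, the hinge protein of cytochrome c1, had 72669 and 35888 in TR9_MeTA14 and 94483 and 69776 in TR15_MeTA5, and was 2.03-fold lower in the former with a log2 change of -0.44 in the latter. UQCRH was under 2-fold in all 4 other scalings drawn in the plot of scalings, and UQCRB under spike-in scaling, where it was 0.06 in TR15_MeTA5. The core proteins UQCRC1 and UQCRC2 had log2 changes of -0.12 and -0.57 in TR9_MeTA14, against -0.34 and -0.23 in TR15_MeTA5. UQCR10 was nearest to 0, with -0.03 and -0.21, and UQCRQ had -0.72 and -0.26. CYC1, the haem protein cytochrome c1, had 8693 and 5770 in TR9_MeTA14 and 9593 and 7413 in TR15_MeTA5, log2 changes of -0.59 and -0.37.

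**Figure D4:**
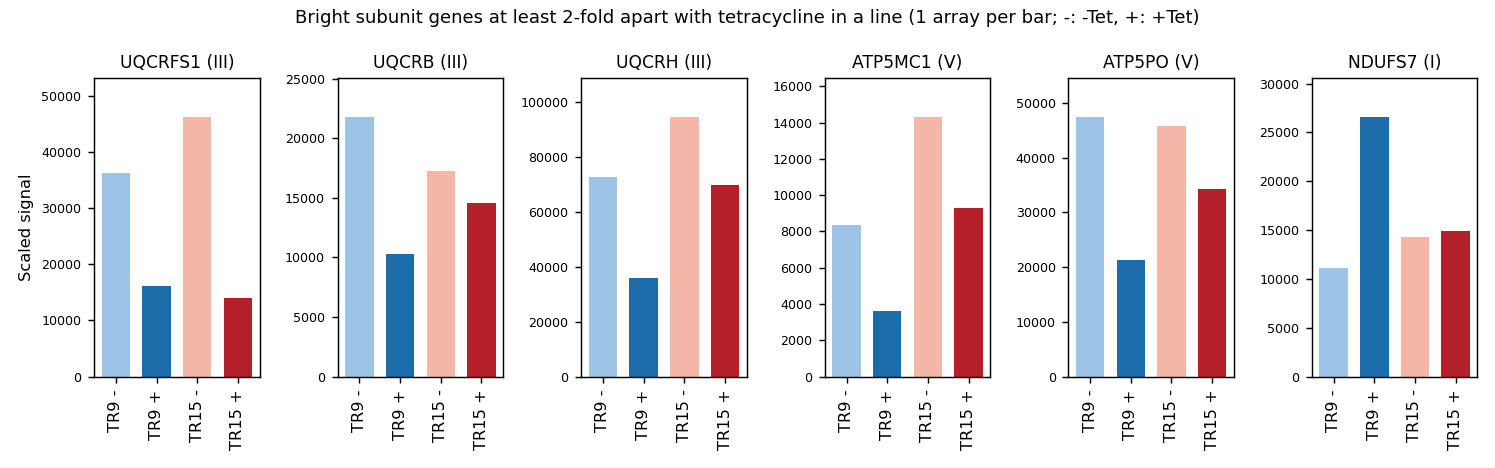
Scaled signals on each of the 4 arrays (1 array per bar, axis from 0) of the 6 bright members at least 2-fold apart with tetracycline in a line, with the complex in parentheses. UQCRFS1 is low in both +Tet arrays (16153 and 13913), whereas UQCRB, UQCRH, ATP5MC1 and ATP5PO are lowest in TR9_MeTA14 +Tet and NDUFS7 stands high there (26544).

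Complex V, the ATP synthase, had a median of -0.54 over its 19 genes in TR9_MeTA14 and -0.33 in TR15_MeTA5, with 17 and 18 genes below 0. ATP5MC1, ATP5MC2 and ATP5MC3 encode the same mature subunit of the rotating ring. ATP5MC1 had 8380 and 3592 in TR9_MeTA14 and 14297 and 9308 in TR15_MeTA5, and was 2.33-fold lower in the former and 1.54-fold lower in the latter. It was the lowest of the complex in both lines, and its adjusted p in limma was 0.238. ATP5MC2 had log2 changes of -0.80 and -0.33 and ATP5MC3 of -0.59 and -0.40, so the order of the 3 genes by change was not the same in the lines. ATP5PO, the peripheral stalk protein that holds the catalytic head, had 47402 and 21324 in TR9_MeTA14 and 45746 and 34359 in TR15_MeTA5, and was 2.22-fold lower in the former with a log2 change of -0.41 in the latter. Quantile normalization left ATP5PO at -0.83 in TR9_MeTA14, inside 2-fold.

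The catalytic subunits ATP5F1A and ATP5F1B had log2 changes of -0.42 and -0.90 in TR9_MeTA14, against -0.35 and -0.30 in TR15_MeTA5. The bright members ATP5F1E and ATP5MG had -0.32 and -0.45 in TR9_MeTA14 and -0.27 and -0.43 in TR15_MeTA5. The highest values were those of ATP5IF1, the inhibitor that blocks ATP hydrolysis, in TR9_MeTA14 (0.26, with -0.27 in TR15_MeTA5) and of ATP5MJ, a small membrane subunit, in TR15_MeTA5 (0.12, with -0.06 in TR9_MeTA14). ATP5IF1 is a regulator rather than a structural subunit and entered through its symbol.

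Complex I, the NADH dehydrogenase and the largest of the complexes, had a median of -0.19 over its 37 genes in TR9_MeTA14, with 26 below 0, and of -0.27 in TR15_MeTA5, with 35 below 0. NDUFS7, the core subunit that holds the last iron-sulfur cluster before ubiquinone, had 11155 and 26544 in TR9_MeTA14 and 14288 and 14937 in TR15_MeTA5. It was 2.38-fold higher in TR9_MeTA14, the only bright member past 2-fold upwards on the scale used, and 1.05-fold in TR15_MeTA5. Its log2 change in TR9_MeTA14 was 1.25 or more under every alternative run and reached 1.64, and its adjusted p in limma was 0.392. No complex I gene was 2-fold lower in either line.

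Other core subunits of complex I lay on both sides of 0 in TR9_MeTA14. NDUFV1, NDUFV2 and NDUFS1, which form the arm where NADH is oxidized, had log2 changes of -0.54, -0.47 and -0.55 there. NDUFS3 and NDUFS8, which lead to the ubiquinone site, had 0.38 and -0.03. In TR15_MeTA5 the same 5 genes lay between -0.44 (NDUFS8) and -0.13 (NDUFV1), all below 0. The median over the 30 accessory subunits was -0.22 in TR9_MeTA14 and -0.26 in TR15_MeTA5. Among the accessory subunits NDUFB5 had the lowest value in TR9_MeTA14 (4215 and 2521, -0.74) and NDUFA5 the lowest in TR15_MeTA5 (4837 and 3328, -0.54). Apart from NDUFS7, COX4I2 and COX7A1, the only member above 0 in both lines was NDUFA13, named after its values were seen, with 0.52 and 0.01.

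Complex II, succinate dehydrogenase, is also an enzyme of the citrate cycle and is encoded wholly in the nucleus. SDHA, the flavoprotein, had 7694 and 9293 in TR9_MeTA14 and 9044 and 8721 in TR15_MeTA5, log2 changes of 0.27 and -0.05. SDHB, the iron-sulfur subunit, had 5107 and 3746 in TR9_MeTA14 and 3036 and 2700 in TR15_MeTA5, changes of -0.45 and -0.17. The membrane anchors SDHC and SDHD had 0.09 and -0.62 in TR9_MeTA14 and -0.19 and -0.55 in TR15_MeTA5. SDHD was thus the lowest of the 4 in both lines, by 1.54-fold and 1.46-fold. The 4 probes of SDHA were all above 0 in TR9_MeTA14 and all below 0 in TR15_MeTA5, and the 3 probes of SDHD were below 0 in both.

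Probes of a gene mostly went the same way. Of the 15 members with more than 1 probe, all probes shared a direction in 11 in TR9_MeTA14 and in 13 in TR15_MeTA5, with a median range over the probes of a gene of 0.10 and 0.15 on the log2 scale and a widest range of 1.06 and 0.84, both at COX6B2. RefSeq names a pseudogene after 50 of the 85 members, UQCRFS1, UQCRH, ATP5MC1 and ATP5PO among them, and whether such copies bind these probes was not tested. The pseudogene UQCRBP1 itself was not well above background on any array. NDUFA6-DT and NDUFB2-AS1 had log2 changes of 0.60 and 0.26 in TR9_MeTA14, against 0.13 and 0.05 in TR15_MeTA5.

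The size of the change was often larger in TR9_MeTA14. It was so for 57 of the 82 members well above background on all 4 arrays. All genes had the wider spread in that line as well, as given above. In both lines 63 members were below 0 and 4 above. The same counts over all genes are not given here, so neither count is read as particular to the members. No test of a difference between the lines was possible without replicates.

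**Figure D5:**
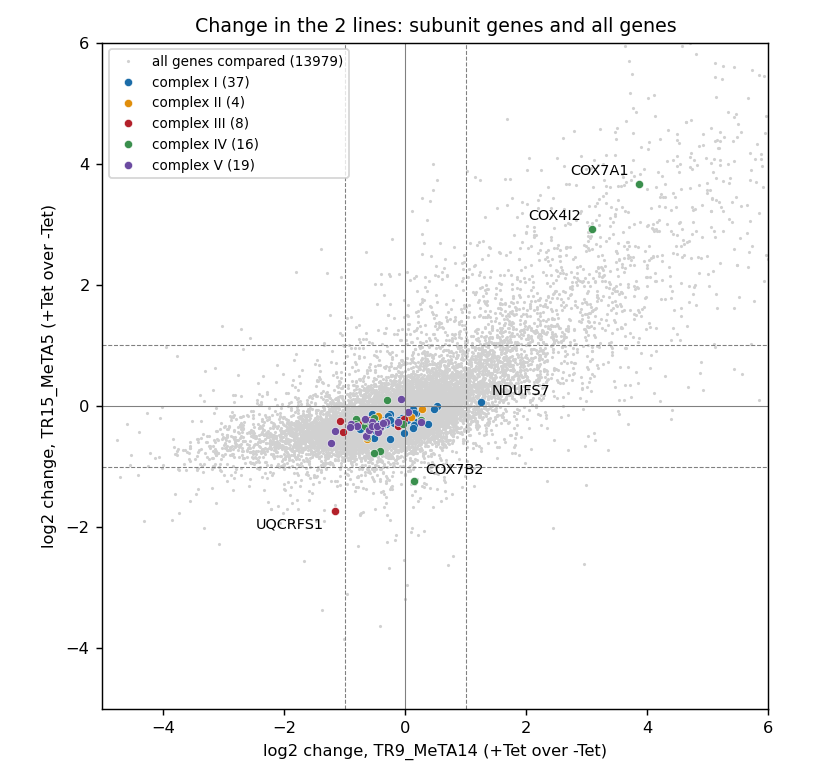
Log2 change (+Tet over -Tet) in TR9_MeTA14 on the horizontal axis and in TR15_MeTA5 on the vertical axis, with subunit genes coloured by complex over 13860 other and member genes in grey (119 genes lie outside the axes) and dashed lines at 2-fold. Most subunit genes form a flat cloud just below 0 on the vertical axis that runs from about -1 to 0.5 on the horizontal one, with COX4I2 and COX7A1 at the upper right.

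Without tetracycline, the members were brighter in TR15_MeTA5 than in TR9_MeTA14 on the scale used. The median log2 difference over 83 members was 0.41, with 15 below 0, beside 0.12 over all genes and 0.35 over the brightest 10%. The sign was set by the scaling, since the median was 0.006 after quantile normalization and -0.57 with the spike-in controls. COX6B2, by its brighter probe, was 2.38-fold higher in TR15_MeTA5 -Tet and was the only member (1.2%) at least 2-fold higher, against 8.19% of genes. COX7B2 was 3.99-fold lower in TR15_MeTA5 -Tet and was the only member (1.2%) at least 2-fold lower, against 5.18%. In size, the median of 0.41 on the scale used was of the same order as the median changes of the members with tetracycline. Those were -0.37 in TR9_MeTA14 and -0.28 in TR15_MeTA5. Single genes were not compared in this way.

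Other mitochondrial genes gave a similar picture in TR15_MeTA5 and a more varied one in TR9_MeTA14. The medians in TR9_MeTA14 and TR15_MeTA5 were -0.30 and -0.27 over 43 assembly factors, -0.28 and -0.21 over 76 mitochondrial ribosomal protein genes, and -0.48 and -0.31 over 14 citrate cycle enzymes. The members' own medians were -0.37 and -0.28. Of the 43 assembly factors 1 (2.33%) was at least 2-fold higher and 2 (4.65%) were lower in TR9_MeTA14, and 1 (2.33%) was lower in TR15_MeTA5. Of the ribosomal protein genes 1 (1.32%) was higher and 4 (5.26%) were lower in TR9_MeTA14, and 1 (1.32%) was lower in TR15_MeTA5. Of the citrate cycle enzymes 1 (7.14%) was higher and 1 (7.14%) was lower in TR9_MeTA14. Over all genes 16.8% were higher and 15.1% lower in TR9_MeTA14, and 2.22% were lower in TR15_MeTA5. The shares of these lists were thus smaller in TR9_MeTA14 and near or below that of all genes in TR15_MeTA5. COXFA4L2, described above, was the only gene of all these lists at least 2-fold apart in the same direction in both lines.

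The 17 regulators of mitochondrial biogenesis had a median of -0.84 in TR9_MeTA14, with 6 (35.3%) at least 2-fold lower and 1 (5.88%) higher. All genes had shares of 15.1% lower and 16.8% higher in that line. In TR15_MeTA5 the median of the regulators was -0.24, with none past 2-fold among the 16 compared. By background the regulators include the coactivators, the nuclear factors NRF1 and GABP and the machinery that transcribes and copies mitochondrial DNA. TFAM, which packages and transcribes mitochondrial DNA, had 5369 and 1954 in TR9_MeTA14 and 6001 and 4209 in TR15_MeTA5, log2 changes of -1.46 and -0.51. POLRMT, the mitochondrial RNA polymerase, had 4631 and 16362 in TR9_MeTA14 and 6150 and 10194 in TR15_MeTA5, changes of 1.82 and 0.73. Both were named after their values were seen, and neither passed in limma (adjusted p of 0.249 and 0.216). The 7 electron carriers and donors had medians of -0.87 and -0.37. Of these 7, 2 (28.6%) were at least 2-fold lower in TR9_MeTA14, against 15.1% of all genes. They were CYCS (cytochrome c, -1.80 and -0.51) and GPD2 (glycerol-3-phosphate dehydrogenase, -1.92 and -0.41).

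Of the 8 LNCaP markers, 7 lay below 0 in TR9_MeTA14 and all 8 in TR15_MeTA5. Their median log2 change was -1.80 in TR9_MeTA14 and -0.65 in TR15_MeTA5. In TR9_MeTA14, 5 of 8 (62.5%) were at least 2-fold lower, against 15.1% of all genes, and in TR15_MeTA5 none was, against 2.22%. KLK3 had 129613 and 33641 in TR9_MeTA14 and 205124 and 126544 in TR15_MeTA5. Their part in the values of the subunit genes was not tested.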

How the data were processed

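RNA of 4 cultures was hybridized to Agilent whole human genome arrays, all 4 on 1 slide. The authors deposited the Feature Extraction output (version 10.7.3.1 per the file headers, 9.5.1 per the submitters' processing notes). The deposited intensity is the processed signal, background-subtracted and not normalized between arrays. The members, lists and settings were chosen with earlier results of these data known. Outlier spots were dropped, the remaining spots of a probe were averaged on the log2 scale, and each array's 75th percentile over its 34127 non-control probes was taken off. Scaled signals are these values at a common percentile of 556. The files held no gene name, so probes were named by RefSeq accession (74.5% with 1 gene). Named members were those past 2-fold, the extremes of each complex and line, complex II, core subunits, isoform sets and the 5 brightest, with 1 of them not reported here. Probes that were well above background on 2 or more arrays were fitted with limma 3.58.1 in R 4.3.3, an intensity trend included, after the fit was tested on simulated data. Tables were made with Python 3.11.15, numpy 2.4.6 and pandas 2.3.3, and drawn with matplotlib 3.10.9. The alternatives were other scalings, quantile normalization joined to normexp (offset 50), the deposited series table, all spots, filters, ratios without bounds, 1.5-fold or 3-fold as the cut-off, probe means, no block and no trend.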

Additional observations from a re-analysis of the deposited data

Results flagged for a closer look

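In 3 members the 2 lines went opposite ways, each by more than 0.17 on the log2 scale, which is 2 SD of a log2 ratio between spots. The difference between the lines (TR9_MeTA14 minus TR15_MeTA5) was 0.68 for NDUFS3 (0.38 and -0.30), 0.53 for ATP5IF1 (0.26 and -0.27) and 0.48 for COX8A (0.26 and -0.22). With 1 array per condition the difference was not tested. The value of TR15_MeTA5 turned above 0 under spike-in scaling for all 3, and under quantile normalization for ATP5IF1 (0.07) and COX8A (0.17).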

How the results depend on the processing

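The cell line block of the limma fit pairs the arrays of a line, and with 1 array per condition no replicate could be left out. The median change of the members in TR9_MeTA14 (-0.37) was -0.16 with quantile normalization, -0.25 with spike-in scaling and -0.12 with normexp and quantile normalization together. In TR15_MeTA5 (-0.28) it was -0.056, 0.033 and -0.063, and between the untreated lines (0.41) it was 0.006, -0.57 and 0.013. The count of members at least 2-fold lower in TR9_MeTA14 (5) was 2 with quantile normalization, 3 with spike-in scaling, 3 with normexp and quantile normalization together, 19 at 1.5-fold and 0 at 3-fold. The share of all genes under each alternative is not given here. In TR15_MeTA5 the count lower (2) was 1 with spike-in scaling, normexp and quantile normalization together, the filter on all 4 arrays or 3-fold, and 5 at 1.5-fold, and the count higher (2) was 1 with that filter. The count that passed limma as higher (2) was 1 without the cell line block and 1 with this filter, and no member was lower in limma under any alternative. Median scaling, the percentile over spots, all spots kept, no filter, plain ratios and the mean over probes moved none of these results beyond the limits used. The deposited series table holds the same signals as the array files and is no test. Quantile normalization, alone or with normexp, added COX8A to the members at least 2-fold higher in TR9_MeTA14. No change past 2-fold with tetracycline in a line turned its direction in that line under any alternative. The 4 arrays limit the precision, and the spread between cultures is unknown.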
